A study of Mus musculus with 6 samples.

Results

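The secreted Wnt antagonists described here were 10 genes of the Sfrp, Dkk, Wif and sclerostin families, taken by gene symbol from a table of 24421 symbols: Sfrp1, Sfrp2, Sfrp4, Sfrp5, Frzb, Dkk1, Dkk2, Dkk3, Wif1 and Sostdc1. All 10 were in the table, and 9 had enough reads to enter the test, as did 15988 symbols in all. RNA came from wild-type (WT) cochlear explants of postnatal day 2 mice, and 6 to 8 cochleae were pooled for a sample, with 3 control samples and 3 treated ones. Explants of the neomycin group were cultured for 12 h, exposed to 1 mM neomycin, an aminoglycoside antibiotic toxic to cochlear hair cells (HCs), for 6 h, and kept for 5 more days with 10 μM EdU, a label of newly made DNA. The control group was taken as cultured without neomycin, from its treatment label, although one protocol text that includes the exposure was entered for both groups. The tectorial membrane, the modiolus and the tissue that forms the stria vascularis had been taken off at dissection, so HCs, supporting cells (SCs), mesenchyme and other cells of the explant were read together. In such bulk RNA, fewer cells of a type and less RNA per cell cannot be told apart.

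Wnt ligands bind Frizzled receptors and the coreceptors Lrp5 and Lrp6, and in the canonical branch this stabilises beta-catenin, which switches on genes together with TCF and LEF factors. Secreted antagonists act outside the cell in different ways. The Sfrp proteins, Frzb among them, carry a Frizzled-like cysteine-rich domain and bind Wnt ligands, Wif1 also binds the ligands, and Dkk1, Dkk2 and Sostdc1 bind the Lrp coreceptors. In the neonatal cochlea, SCs that respond to Wnt can divide or give rise to HCs.

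After neomycin, 3 of the 9 tested antagonists were higher at an adjusted p-value under 0.05, Sfrp4, Wif1 and Sostdc1, where 12.9% of all genes were. Sfrp4 alone also passed 1.5-fold, where 8.84% of all genes did so in either direction. Wif1 and Sostdc1 did not pass in 7 and 8 of 17 alternative fits. Only Sfrp4 stayed higher once a trend of the fold change with gene length was removed. No antagonist was lower at an adjusted p-value under 0.05 in this fit, although Sfrp1 and Dkk3 had lower estimates (Sfrp1 -13.2%, Dkk3 -13.3%). Sfrp1 and Dkk3 were by far the most abundant members, and both passed as lower in a fit that paired the samples by replicate number. Sfrp2, Frzb and Dkk2 did not pass the test, Sfrp5 was low and did not pass either, and Dkk1 was near absent from the libraries of both groups. The median log2 fold change, neomycin over control, was 0.03 for the 9 genes and -0.0041 over all genes tested.

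Levels are given in CPM, the reads of a gene for every 1000000 counted reads, with library sizes scaled by the trimmed mean of M-values (TMM), and as mean ± SD over the 3 samples of a group. Differences are log2 fold changes with their standard error (SE) from edgeR's quasi-likelihood test, fitted to all genes, with Benjamini-Hochberg adjusted p-values over all of them. A gene counted as called when its adjusted p-value was under 0.05 and its change exceeded 1.5-fold. In edgeR, 8.84% of all genes were called, 2.24% higher and 6.6% lower. With no fold change threshold, 29% passed, 12.9% higher and 16.1% lower, and for 43.5% the control and neomycin values did not overlap. Libraries held 50471116 to 66068108 counted reads. Nothing in the labels says that the pools came from separate litters or cultures, so the p-values measure the spread between these samples.

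The fold change of a gene was related to its length in this dataset, which bears on several antagonists. Over 15870 tested genes with a known exon length, Spearman's rho between the log2 fold change and the summed exon length was -0.41, given as a description, since genes share the same 6 libraries. The median log2 fold change was 0.26 for 2449 genes with under 2 kb of exon and -0.14 for 6434 genes with over 5 kb. For each antagonist the median of the 1000 genes nearest in length is therefore given where it bears on the result. What moved long and short genes apart was not tested.

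All 10 antagonists are protein-coding genes, and their reads were counted over exons. In the GENCODE annotation of GRCm38, the assembly that UCSC calls mm10, they lie on 8 chromosomes, with Sfrp2 and Dkk2 both on chromosome 3 and Sfrp5 and Dkk1 both on chromosome 19. Sfrp1 is at chr8:23411502-23449632 (plus strand), Sfrp2 at chr3:83766321-83774316 (plus), Sfrp4 at chr13:19623104-19632994 (plus), Sfrp5 at chr19:42197971-42202252 (minus) and Frzb at chr2:80411970-80447625 (minus). Dkk1 is at chr19:30545863-30549665 (minus), Dkk2 at chr3:132085292-132180304 (plus), Dkk3 at chr7:112116017-112159057 (minus), Wif1 at chr10:121033960-121100650 (plus) and Sostdc1 at chr12:36314139-36318452 (plus). Exons of an antisense gene, Gm26771, overlap those of Sfrp2 on the opposite strand, and the strand setting of the counting was not given in the sources used here, so reads of the pair cannot be told apart.

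Promoter windows were read to show the sequence at which beta-catenin's partners could be met, in the RefSeq set for GRCm38.p6 with 250 bases before and 50 bases after each start. An entry was found for 6 of the 10 genes, Sfrp2, Sfrp5, Frzb, Dkk1, Dkk2 and Wif1. TCF and LEF factors bind motifs of which 4 forms were searched on both strands of 32851 windows. The form CTTTGAT was in 3.73% of windows, CTTTGAA in 5.14%, CTTTGTT in 5.85% and CTTTGTA in 3.63%, and at least 1 form was in 16.9%. The TATA element TATAAA, whose start can overlap the end of CTTTGTA, was in 13.6%. Of the 6 antagonists, Dkk1 alone held a TCF/LEF form, and Dkk1, Dkk2 and Wif1 held TATAAA. A match of letters is a description and not a binding site. The sequences below run 5′ to 3′ on the strand of the gene with the matched letters in capitals. They show Wif1 (chr10:121033754-121033959, plus strand), which rose, with TATAAA on the opposite strand, Dkk2 (chr3:132085042-132085291, plus), with TATAAA from position -32 relative to the RefSeq start, and Sfrp2 (chr3:83766071-83766320, plus), which held neither motif. For Dkk1 they show the 30 bases around each TCF/LEF form, CTTTGAA (chr19:30549595-30549624, minus) and CTTTGTT (chr19:30549576-30549605, minus), at positions -117 and -98 and inside the longer transcript of GENCODE.
Wif1: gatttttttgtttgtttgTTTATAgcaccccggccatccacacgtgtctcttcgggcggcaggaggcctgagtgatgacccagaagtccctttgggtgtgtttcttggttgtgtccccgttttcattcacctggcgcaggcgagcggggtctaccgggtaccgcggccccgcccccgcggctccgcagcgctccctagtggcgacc
Dkk2: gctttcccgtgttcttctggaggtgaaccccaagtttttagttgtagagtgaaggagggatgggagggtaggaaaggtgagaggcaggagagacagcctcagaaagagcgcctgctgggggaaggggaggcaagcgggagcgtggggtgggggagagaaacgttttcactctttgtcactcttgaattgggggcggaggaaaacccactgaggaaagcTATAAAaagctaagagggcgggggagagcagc
Sfrp2: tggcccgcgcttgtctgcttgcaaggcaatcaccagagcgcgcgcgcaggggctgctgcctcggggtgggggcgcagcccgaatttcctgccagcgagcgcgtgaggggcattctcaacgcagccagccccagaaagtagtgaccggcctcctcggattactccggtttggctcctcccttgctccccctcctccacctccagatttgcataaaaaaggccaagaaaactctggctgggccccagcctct
Dkk1, farther from the start: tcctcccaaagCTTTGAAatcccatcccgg
Dkk1, nearer to the start: tcccatcccggCTTTGTTgtcttccctgag

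**Figure D1:**
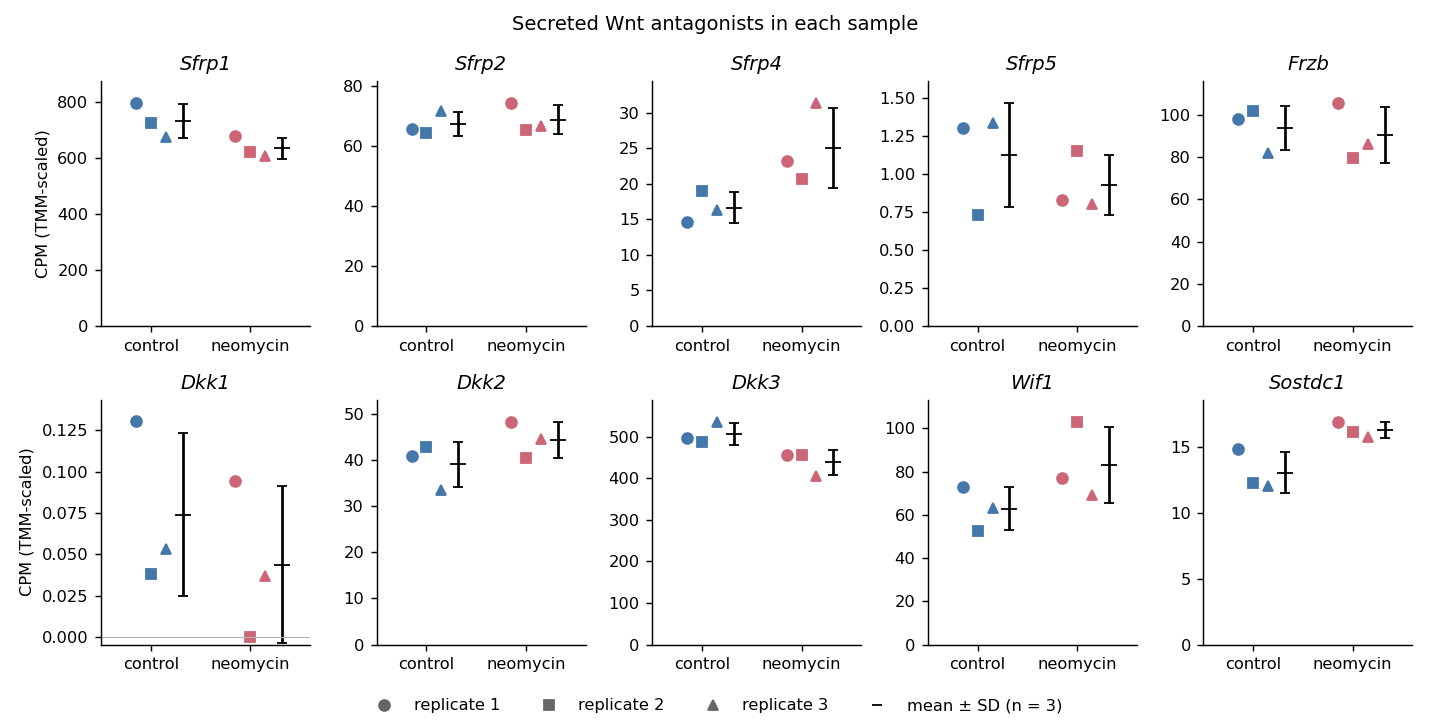
Level of each of the 10 secreted Wnt antagonists in TMM-scaled CPM (vertical axis, a separate linear scale for each gene) in the 3 control (blue) and 3 neomycin (red) samples, with the mean ± SD in black. The neomycin samples of Sfrp4 (20.7 to 31.3 CPM) and Sostdc1 (15.8 to 16.9 CPM) lie above all controls, and those of Dkk3 (404 to 457 CPM) lie below all controls.

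Within the Sfrp family, Sfrp4 rose, while the abundant Sfrp1 had a lower estimate that did not pass the test. Sfrp4, a Sfrp protein also known for its part in bone and phosphate handling, was read at 14.6, 19.0 and 16.3 CPM in control samples 1 to 3 and at 23.1, 20.7 and 31.3 CPM in neomycin samples 1 to 3. Every neomycin sample was above every control, and neomycin replicate 3 stood highest. The means were 16.6 ± 2.23 CPM and 25.0 ± 5.57 CPM (SD, n = 3), and the log2 fold change was 0.59 (SE 0.15, adjusted p = 0.0106, edgeR), a rise of 50.45%. This call sat close to its fold change threshold, with a margin of 0.004 on the log2 scale. Sfrp4 had an adjusted p-value under 0.05 in all 17 alternative fits, from 0.000607 to 0.0446, with a log2 fold change from 0.40 to 0.71, and in 11 of them it passed 1.5-fold. The log2 fold change was 0.40 without neomycin replicate 3 (adjusted p = 0.0446, edgeR) and 0.51 without control replicate 1 (adjusted p = 0.0294, edgeR), both under 1.5-fold. The 1000 genes nearest to its 4.18 kb of exon had a median of -0.02 on the log2 scale, and with the length trend removed Sfrp4 kept 0.59 (adjusted p = 0.0099, edgeR).

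Sfrp1, the antagonist with the highest level, was read at 796, 725 and 676 CPM in the controls and at 678, 622 and 607 CPM after neomycin. The groups overlapped by a narrow margin, since neomycin replicate 1 lay just above control replicate 3. The means were 732 ± 60.2 CPM and 636 ± 37.4 CPM, with a log2 fold change of -0.20 (SE 0.09, adjusted p = 0.104, edgeR). It passed in 4 of 17 alternative fits. These were total count scaling (-0.27, adjusted p = 0.0457, edgeR) and the fit without control replicate 3 (-0.25, adjusted p = 0.0463, edgeR). The others were replicate number as a block (-0.20, adjusted p = 0.0195, edgeR) and the block with the length trend removed (-0.19, adjusted p = 0.0203, edgeR).

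The other Sfrp genes gave estimates within their spread. Sfrp2, a Sfrp gene of mesenchyme in many tissues, was at 65.7, 64.6 and 71.9 CPM in the controls and at 74.4, 65.6 and 66.8 CPM after neomycin, with a log2 fold change of 0.03 (SE 0.08, adjusted p = 0.787, edgeR). Its sign turned with the length trend removed (-0.13) and under total count scaling (-0.03). Frzb, also called Sfrp3 and first described in cartilage, was at 97.8, 102 and 82.1 CPM and then at 105, 79.5 and 86.3 CPM, with a log2 fold change of -0.05 (SE 0.11, adjusted p = 0.738, edgeR). Neomycin replicate 1 was the highest of the 6 samples for both Sfrp2 and Frzb, and the groups overlapped. Sfrp5, related in sequence to Sfrp1, was low, at 1.30, 0.728 and 1.33 CPM in the controls and 0.828, 1.15 and 0.801 CPM after neomycin, from 38 to 90 reads in a library. Its log2 fold change of -0.28 was smaller than its SE of 0.35 (adjusted p = 0.580, edgeR). A change of this size could not be told from the spread between these samples.

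Wif1, which binds Wnt ligands through its own WIF domain, rose after neomycin with a spread that 1 library widened. It was read at 72.8, 52.7 and 63.1 CPM in the controls and at 77.1, 103 and 69.1 CPM after neomycin. Neomycin replicate 2 stood highest, and neomycin replicate 3 lay below control replicate 1, so the groups overlapped. The means were 62.9 ± 10.1 CPM and 83.1 ± 17.8 CPM, with a log2 fold change of 0.40 (SE 0.14, adjusted p = 0.0473, edgeR), a 1.32-fold rise. The adjusted p-value was over 0.05 without neomycin replicate 2 (0.22, adjusted p = 0.251, edgeR), without control replicate 2 (0.29, adjusted p = 0.189, edgeR) and without control replicate 3 (0.41, adjusted p = 0.0716, edgeR), as it was in limma-voom (0.39, adjusted p = 0.0529) and under total count scaling (0.33, adjusted p = 0.11, edgeR). The 1000 genes nearest to its 2.43 kb of exon had a median of 0.13, and with the length trend removed Wif1 had 0.27 (adjusted p = 0.181, edgeR).

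In the Dkk family the level of Dkk3 was far above that of Dkk2, and Dkk1 was close to 0. Dkk3, the divergent member of the family, which unlike Dkk1 is not a typical Lrp6 ligand, was read at 497, 486 and 536 CPM in the controls and at 457, 455 and 404 CPM after neomycin. The groups did not overlap, and neomycin replicate 3 was the lowest. The means were 506 ± 26.2 CPM and 439 ± 29.9 CPM, with a log2 fold change of -0.21 (SE 0.08, adjusted p = 0.0811, edgeR). Genes nearest to its 3.36 kb of exon had a median of 0.04, and with the length trend removed Dkk3 passed the test at -0.26 (adjusted p = 0.022, edgeR). DESeq2 gave an adjusted p-value of 0.0405 and limma-voom 0.0721. Dkk3 passed in 5 of 17 alternative fits and in no fit that left out a sample (adjusted p = 0.0849 to 0.3, edgeR).

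Dkk2, which can act on Lrp6 as an inhibitor or a weak agonist, was read at 40.9, 42.8 and 33.4 CPM in the controls and at 48.2, 40.4 and 44.7 CPM after neomycin. The groups overlapped, with control replicate 3 lowest and neomycin replicate 1 highest. The log2 fold change was 0.19 (SE 0.10, adjusted p = 0.183, edgeR). Dkk1, the best known Lrp6 inhibitor and a target of beta-catenin in several tissues, had 9, 2 and 3 reads in the controls and 5, 0 and 2 reads after neomycin. Most of these counts were at or under 3 reads, the limit that a count of 0 allows. The filter on low counts removed Dkk1 from the reported fit, so it was not tested there and no fold change is given.

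Sostdc1, a sclerostin-like protein that binds bone morphogenetic proteins as well as Lrp6, was higher in every neomycin sample. It was read at 14.9, 12.3 and 12.0 CPM in the controls and at 16.9, 16.2 and 15.8 CPM after neomycin. The groups did not overlap, although control replicate 1 came within 1 CPM of neomycin replicate 3. The means were 13.1 ± 1.59 CPM and 16.3 ± 0.595 CPM, with a log2 fold change of 0.32 (SE 0.11, adjusted p = 0.0447, edgeR), a 1.24-fold rise. Its exons, 1.78 kb in sum, were the shortest of the 10, and the 1000 genes nearest in length had a median of 0.21. With the length trend removed Sostdc1 had 0.10 (adjusted p = 0.593, edgeR). Its adjusted p-value was also over 0.05 under total count scaling (0.138, edgeR) and in 5 of the 6 fits that left out a sample (0.0796 to 0.144, edgeR), and stayed under it without control replicate 1.

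**Figure D2:**
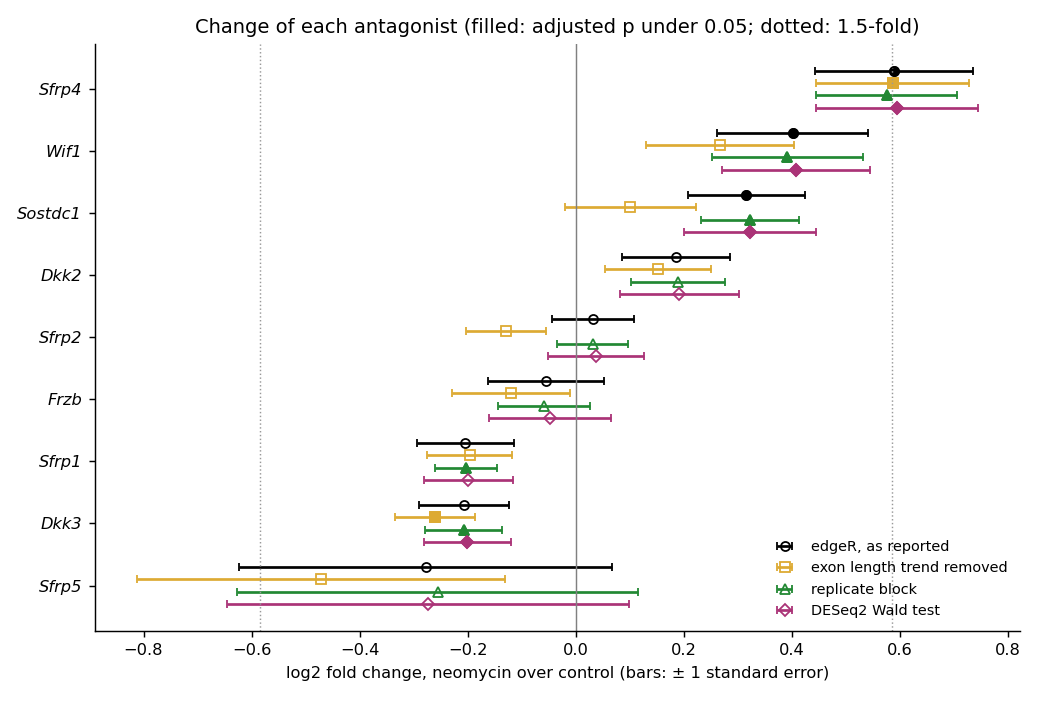
Log2 fold change, neomycin over control, of the 9 tested antagonists (horizontal axis) ± 1 SE in 4 fits: edgeR as reported (black), with the exon length trend removed (yellow), with replicate number as a block (green) and DESeq2 (purple). Filled points have an adjusted p-value under 0.05 and dotted lines mark 1.5-fold; Sfrp4 is filled in all 4 fits, while Wif1 and Sostdc1 are open once the length trend is removed (0.27 and 0.10).

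**Figure D3:**
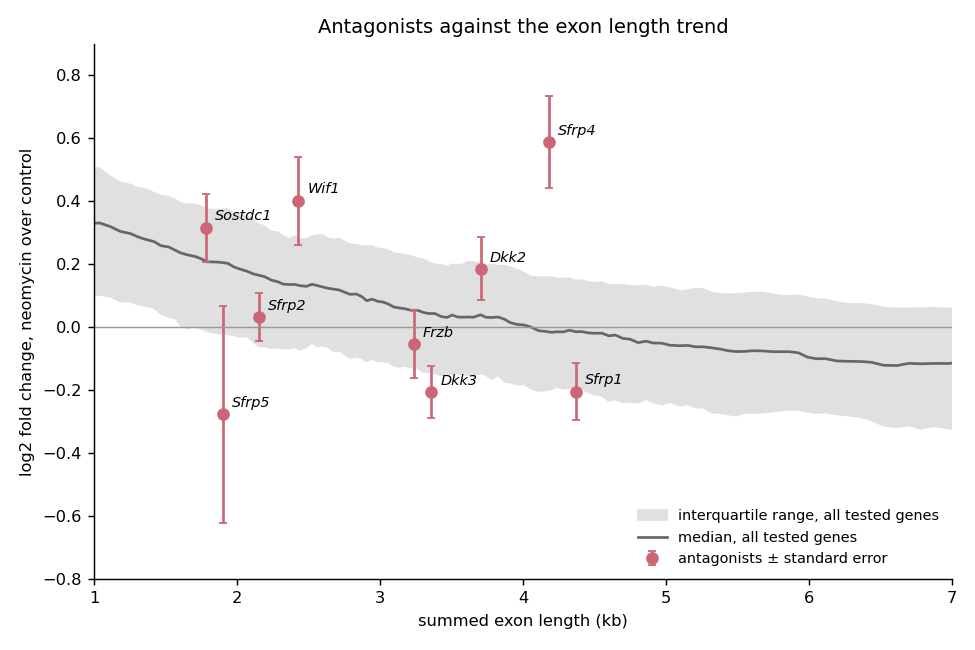
Log2 fold change, neomycin over control, against summed exon length in kb, with the running median (grey line) and interquartile range (grey band) over windows of 1000 tested genes, and the 9 tested antagonists ± SE in red. Sostdc1 (0.32) lies inside the band for genes of its length, whose median was 0.21, while Sfrp4 (0.59) lies above the band, where the median was -0.02. Wif1 (0.40) also lies above the band, and Dkk3 (-0.21), Sfrp5 (-0.28) and, narrowly, Sfrp1 (-0.20) lie below it. An interquartile band leaves out many genes by its definition.

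Counted together, 3 of 9 antagonists were higher at an adjusted p-value under 0.05, where 12.9% of all genes were, and 1 of 9 was called, where 8.84% were. None was lower in edgeR, where 16.1% of all genes were. At an adjusted p-value under 0.05, 1 was lower in DESeq2 (Dkk3) and 0 in limma-voom. With replicate number as a block, 2 were lower in edgeR (Sfrp1 and Dkk3). Shares of all genes are given for the reported fit only. Groups did not overlap for 3 of 9 genes (Sfrp4, Dkk3 and Sostdc1), against 43.5% of all genes. With the length trend removed, 1 gene was higher (Sfrp4) and 1 lower (Dkk3), and under total count scaling 1 was higher (Sfrp4) and 2 lower (Sfrp1 and Dkk3). The number of higher genes fell to 1, Sfrp4, without control replicate 2, without control replicate 3 and without neomycin replicate 2.

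Levels of different genes were compared per length, as CPM per kb of exon, in which 2 genes made up most of the antagonist RNA. In the controls the order of mean levels was Sfrp1 (167.5 CPM per kb), Dkk3 (150.7), Sfrp2 (31.3), Frzb (29.0), Wif1 (25.9), Dkk2 (10.5), Sostdc1 (7.35), Sfrp4 (3.98), Sfrp5 (0.591) and Dkk1 (0.0305). The ranges of Sfrp1 and Dkk3 overlapped over the 3 controls, as did those of Sfrp2 with Frzb and of Frzb with Wif1, and all other neighbours in this order were apart. After neomycin the order was Sfrp1 (145.4 CPM per kb), Dkk3 (130.6), Wif1 (34.2), Sfrp2 (32.0), Frzb (27.9), Dkk2 (12.0), Sostdc1 (9.16), Sfrp4 (5.99), Sfrp5 (0.488) and Dkk1 (0.0180). There Sfrp1 and Dkk3 no longer overlapped, while Wif1 with Sfrp2 and Sfrp2 with Frzb did. Wif1 was thus below Frzb and Sfrp2 in the controls, where its range overlapped that of Frzb but not that of Sfrp2. After neomycin the mean of Wif1 was above both. The range of Wif1 there (28.5 to 42.5 CPM per kb) overlapped that of Sfrp2 and that of Frzb (24.6 to 32.6 CPM per kb).

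The 10 genes summed to 444, 417 and 419 CPM per kb in the controls and to 418, 401 and 374 CPM per kb after neomycin, and the groups overlapped, since neomycin replicate 1 lay above control replicate 2. Sfrp1 and Dkk3 together gave 74.3%, 74.4% and 74.9% of that sum in the controls and 69.5%, 69.3% and 69.3% after neomycin. The shares of the groups did not overlap, 74.5% ± 0.344 against 69.4% ± 0.154 (SD, n = 3). The pair was chosen after its values were seen, so no test is given. With the length trend removed the shares were 73.3% to 74.8% and 69.8% to 70.3%, and with the longest transcript as length 73.4% to 74.1% and 68.3% to 68.6%. Without the pair, the other 8 genes summed to 105 to 114 CPM per kb in the controls and to 115 to 127 CPM per kb after neomycin.

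**Figure D4:**
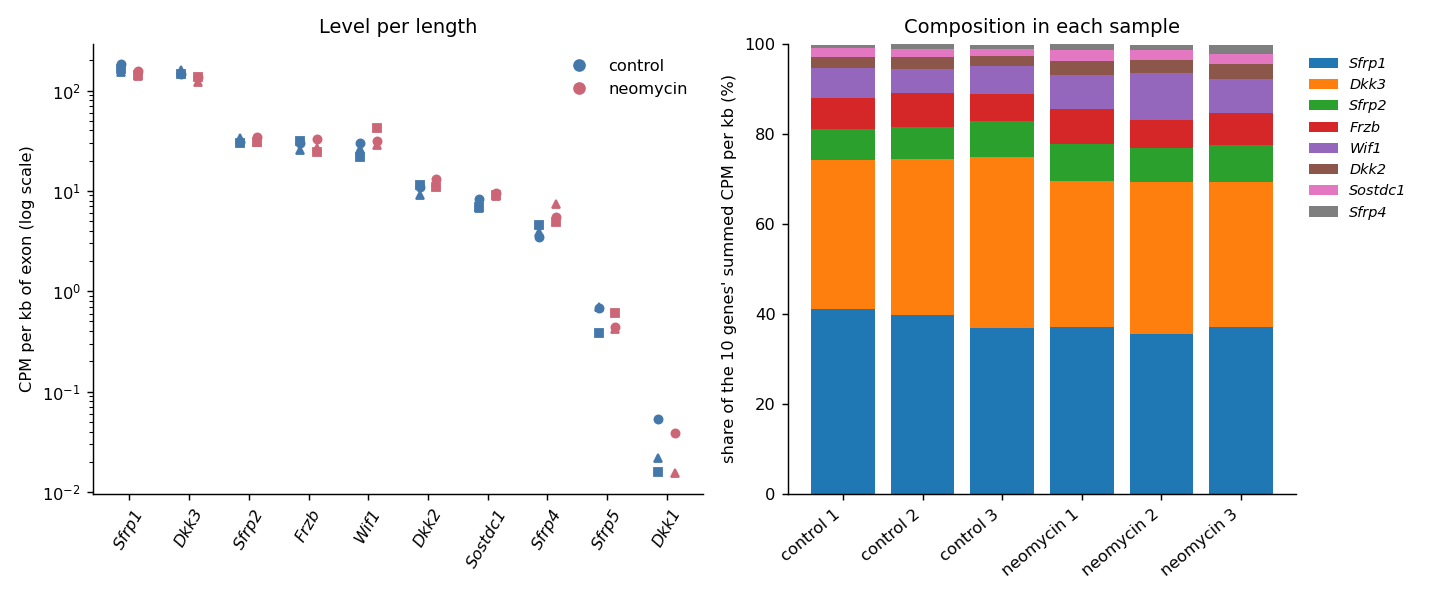
Left, level of each antagonist in CPM per kb of exon (log axis) in the control (blue) and neomycin (red) samples (circle, square and triangle for replicates 1 to 3), in the order of the control means, with the neomycin sample without a Dkk1 read left out. Right, share of each gene in the summed CPM per kb of the 10 antagonists, as a stacked bar for each sample; Sfrp5 and Dkk1, under 1% together, are not drawn, and Sfrp1 with Dkk3 reach 74.3% to 74.9% in the controls and 69.3% to 69.5% after neomycin.

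Patterns over the 6 samples were compared as the Euclidean distance between genes in log2 CPM, each centred on its control mean. Of the 36 pairs of tested antagonists, Sfrp1 and Dkk3 were the closest (0.270), followed by Sfrp1 with Frzb (0.361) and Dkk2 with Sostdc1 (0.390). Sfrp4 and Sfrp5 were the farthest apart (1.88). These distances cover 6 libraries of 2 groups and are a description.

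The rest of the Wnt pathway was read in 6 lists written from general knowledge, with 80 genes of which 70 were tested. At an adjusted p-value under 0.05, 4 of the 70 were higher and 18 lower, where 12.9% of all genes were higher and 16.1% lower. Of the 70, 1 was called higher and 6 lower, where 2.24% and 6.6% of all genes were. Genes under 1.5-fold named here were chosen after their values were seen, except Kremen1, Axin2, Lef1 and Lrp6. Among 11 other extracellular inhibitors, 8 were tested, and 2 were higher and 2 lower. Notum, a lipase that strips Wnt ligands of their fatty acid, rose from 33.9 ± 1.31 CPM to 48.7 ± 4.48 CPM (log2 fold change 0.52, adjusted p = 0.000919, edgeR). Igfbp4, a binding protein of insulin-like growth factors that can also block Lrp6, rose by 0.34 (adjusted p = 0.00715, edgeR). Kremen1, the receptor through which Dkk proteins remove Lrp6 from the membrane, fell by 0.45 (adjusted p = 0.00222, edgeR), and Trabd2b, a protease that cuts Wnt ligands, fell by 0.31 (adjusted p = 0.0161, edgeR).

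Of 16 Wnt receptors and coreceptors, all tested, 6 were lower, where 16.1% of all genes were, and 10 did not pass, with a median log2 fold change of -0.23. With the exon length trend removed, 8 of the 16 had an adjusted p-value under 0.05 in edgeR, counted without regard to direction. The fold changes given here for pathway genes are not corrected for length. Lrp5, a coreceptor bound by Dkk proteins, fell from 88.6, 79.1 and 77.4 CPM to 53.0, 53.8 and 48.6 CPM (log2 fold change -0.66, adjusted p = 0.00012, edgeR). Lrp6 had -0.24 and did not pass (adjusted p = 0.0524, edgeR). Of 10 Frizzled genes, 4 were lower, with Fzd4, a receptor of blood vessels and retina, called at -1.07 (adjusted p = 0.000586, edgeR), and Ror1, a Wnt5a receptor, was called at -1.01 (adjusted p = 0.003, edgeR). Of 9 R-spondin and Lgr genes, 8 were tested and 2 were lower, with Lgr6, a receptor of R-spondins that marks a subset of SCs, called at -1.14 (adjusted p = 0.000365, edgeR).

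Among 19 Wnt ligands, 13 were tested, and Wnt6 was higher and Wnt7a lower, where 12.9% of all genes were higher and 16.1% lower. Wnt6, at 0.658 ± 0.244 CPM in the controls and 1.70 ± 0.347 CPM after neomycin, was called at 1.36 (adjusted p = 0.0127, edgeR), and Wnt7a had -0.33 (adjusted p = 0.00754, edgeR). Of 17 intracellular genes, 1 was higher and 4 lower, with Dvl3, an adaptor of Frizzled receptors, and Bcl9l, a cofactor of beta-catenin, called at -0.89 and -0.82 (adjusted p = 0.00166 and 0.0011, edgeR). Of 8 feedback targets of beta-catenin, 3 were lower, where 16.1% of all genes were, and 5 did not pass. The median log2 fold change of these targets was -0.0017. Axin2, the usual read-out of canonical Wnt activity, fell from 92.7 ± 1.30 CPM to 71.9 ± 6.05 CPM (log2 fold change -0.37, adjusted p = 0.00416, edgeR). Ccnd1, a cyclin, and Nkd2, an inhibitor of Dishevelled, had -0.40 and -0.38 (adjusted p = 0.00833 and 0.00941, edgeR), while Lef1, a partner of beta-catenin, had 0.05 (adjusted p = 0.743, edgeR).

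**Figure D5:**
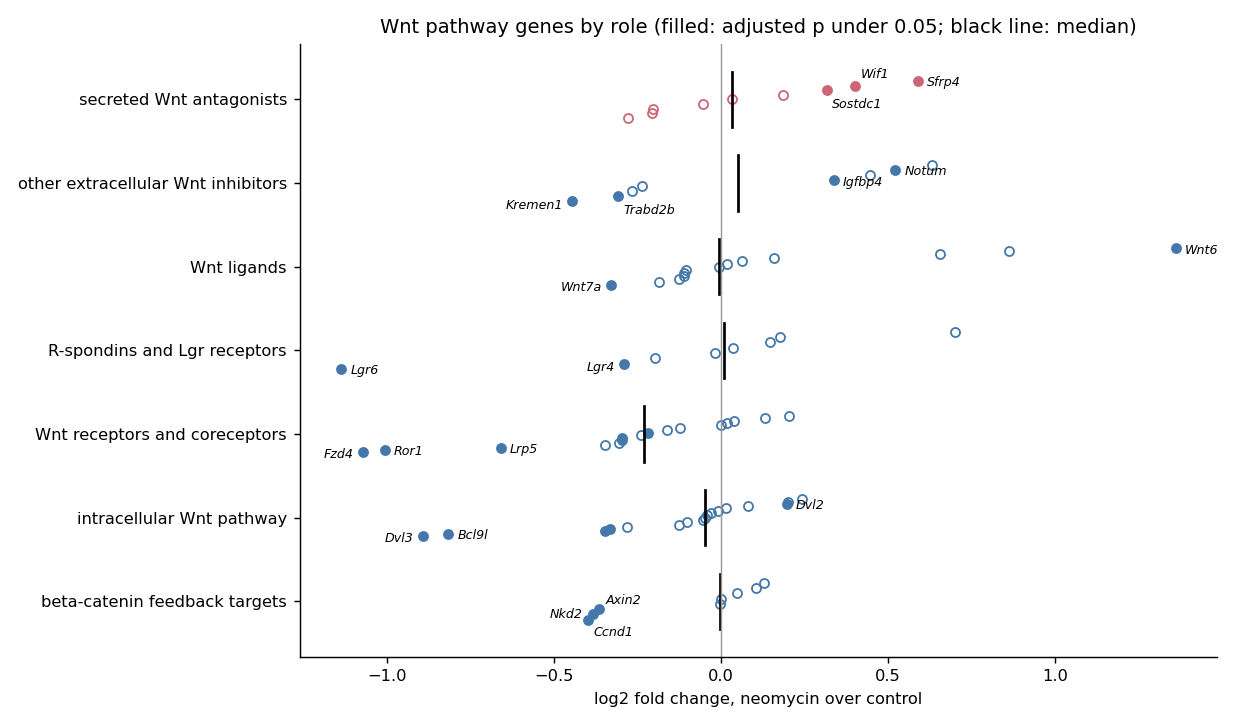
Log2 fold change, neomycin over control, of each tested gene in the antagonist list (red) and the 6 other Wnt lists (blue), with the median of a list as a black line and filled points for an adjusted p-value under 0.05. The 3 filled antagonists lie to the right of 0, though 4 of the 9 lie to the left, and Wif1 and Sostdc1 did not pass with the exon length trend removed. The 6 filled receptors and coreceptors lie to the left, with the median of that list at -0.23. All points and medians are drawn without the exon length correction.

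Levels of cell type markers were read in 9 lists. Counts are at an adjusted p-value under 0.05, where 12.9% of all genes were higher and 16.1% lower. Of 12 HC markers, 11 were lower after neomycin (median log2 fold change -1.76), and their summed level went from 594 to 745 CPM in the controls to 134 to 165 CPM. Of 12 SC markers, 2 were higher and 4 lower (median 0.04), and the sum was 3273 to 3688 CPM in the controls and 3994 to 4140 CPM after neomycin. Without S100a1, the SC marker with the highest level, the sums overlapped, at 1880 to 1885 CPM and 1852 to 2018 CPM. Of 12 mesenchyme and fibroblast markers, 2 were higher and 4 lower (median -0.30, sums of 6464 to 7102 CPM and 6748 to 6976 CPM). Of 7 tested cartilage markers, 2 were higher (median 0.06, sums of 6288 to 7633 CPM and 7262 to 7567 CPM). Of 8 endothelial markers, 6 were lower (median -1.94), though the sum, which Emcn dominated, ran from 281 to 315 CPM and from 267 to 317 CPM, and without Emcn from 43.2 to 56.1 CPM and from 19.3 to 21.5 CPM. Of 8 macrophage markers, 3 were higher (median 0.39, sums of 68.3 to 86.8 CPM and 89.6 to 115 CPM). Of 8 markers each, neurons had 4 lower (median -0.62), Schwann cells and glia 1 higher and 2 lower (-0.03), and pericytes and smooth muscle 1 higher and 1 lower (-0.38). No list was at 0 in either group. The part of these marker levels in the levels of Sfrp4, Wif1, Sostdc1 and the other antagonists was not tested.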

How the data were processed

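RNA of 6 explant pools, 3 control and 3 neomycin, was sequenced from libraries made with an Illumina mRNA-Seq kit. Per the labels and the study's methods, the authors called bases with Casava 1.8, trimmed reads with trimmomatic 0.23, aligned them to mm10 with Hisat2 and deposited counts, whole numbers of HTSeq reads per gene symbol on the UCSC annotation. How reads with several matches were handled was not given in the sources used here. Counts were tested with edgeR 4.0.16 (R 4.3.3; quasi-likelihood test, TMM, filterByExpr, Benjamini-Hochberg) in a fit of treatment over all 6 samples. DESeq2 1.42.0, voom in limma 3.58.1, other scalings, other filters on low counts, a replicate block, a lowess correction (span 0.3) for exon length and the omission of each sample were tried as alternatives, and one for transcript GC content was added after seeing the data. The code was tested on simulated data. Exon lengths came from GENCODE vM21 (GRCm38), with 23376 symbols matched directly and 678 through an older symbol. Replicates differed by more than counting noise, with a mean chi-square of 13.7 to 46.7 per gene between pairs. All 10 antagonists were named whatever their values, with pathway genes that were called, at most 4 for each list, plus Axin2, Lef1, Lrp5, Lrp6 and Kremen1; Notum, Igfbp4, Trabd2b, Wnt7a, Ccnd1 and Nkd2 fall outside this rule and were chosen after their values were seen. The antagonists and the lists were chosen with earlier results of these data known.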

Additional observations from a re-analysis of the deposited data

How the results depend on the processing

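The number of called antagonists, 1 as reported (Sfrp4), was 0 under limma-voom, 0 under total count scaling and 0 to 1 when a sample was left out; the values behind it straddle the fold change threshold. The number at an adjusted p-value under 0.05, 3 as reported, ran from 1 to 3 when a sample was left out. Over all genes, 1037 to 1672 were called in those fits, and 1413 as reported. Of R-spondin and Lgr genes, 4 in place of 2 passed with the exon length trend removed. Per kb of the longest transcript, Sfrp2 was at 33.7 CPM in the controls in place of 31.3. Estimates near 0 changed sign: Sfrp2 had -0.035 under total count scaling, -0.13 with the length trend removed and -0.027 to 0.091 when a sample was left out, and Frzb had -0.18 to 0.031 when a sample was left out. Total count scaling moved the median of all genes by -0.07. Removing the GC trend kept the same 3 genes. The causes were not tested.

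The labels number the samples 1 to 3 in both groups. Deviations of same-numbered samples correlated at 0.165, 0.0264 and 0.0949, not all over 0.1, and those of other pairs at -0.129 to 0.0325. Control replicate 2 correlated best with neomycin replicate 3 (0.0325). Controls 1 and 3 and every neomycin sample correlated best with the sample of their own number. The labels state no pairing, so the reported fit took the samples to share only a number, and a pairing was not excluded. With replicate number as a block, 5 antagonists had an adjusted p-value under 0.05 and 0 were called. Over all genes, 1465 were called in that fit, against 1413 as reported. The share of all genes at an adjusted p-value under 0.05 in that fit is not given here, so the 5 have no background. Sfrp1 and Dkk3 joined as lower there (adjusted p = 0.0195 and 0.0424, edgeR). With the block and the length trend removed, Sfrp1, Sfrp4 and Dkk3 passed, 0 were called and Sfrp2 had -0.13.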
